A study of Mus musculus with 6 samples.

Results

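The TCF/LEF factors and their cofactors were examined in oligodendrocyte precursor cells (OPCs), the glial cells that give rise to oligodendrocytes. The genes were taken from the deposited expression table by symbol. They are 4 TCF/LEF factors (Lef1, Tcf7, Tcf7l1 and Tcf7l2), 4 Groucho co-repressors (Tle1, Tle2, Tle3 and Tle4) and 2 Bcl9 co-activators (Bcl9 and Bcl9l), 10 of 18211 genes in all. The OPCs came from C57BL/6 mice at postnatal day 7, were isolated with an antibody to PDGFRα by immunopanning, and were sequenced without culture. The control group was wildtype mice without the CreERT transgene. The other group, called DISC1-Δ3 here, carried NG2-CreERTM and 1 floxed copy of DISC1 exon 3 (NG2-CreERTM: DISC1 exon3 fl/+), so that tamoxifen removes that exon from a single allele in cells that express NG2, which include pericytes as well as OPCs. Both groups received tamoxifen by gavage on 4 consecutive days, postnatal days 4 to 7, and each gave 3 libraries. The labels do not say whether the libraries came from separate mice, so the p-values measure the spread between these libraries.

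TCF/LEF factors are the DNA-binding end of the Wnt/β-catenin pathway. Without a Wnt signal they sit on their target genes with Groucho proteins, which recruit histone deacetylases and keep the genes off. When β-catenin accumulates, it displaces Groucho from the TCF/LEF factor, and BCL9 proteins link it to Pygopus and the transcription machinery. Lef1 and Tcf7 are themselves known targets of the pathway in many tissues, and both genes also make shorter proteins that lack the β-catenin binding region. Tcf7l2 is known in this lineage for its transient presence in oligodendrocytes that are starting to differentiate.

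The libraries held 13716619 to 16417219 reads assigned to genes. The RPKM of Disc1 (its reads scaled by transcript length and library size) was 3.51, 3.34 and 3.81 in wildtype libraries, against 2.86, 2.44 and 2.85 in those of DISC1-Δ3, but a value per gene does not resolve exon 3. The OPC markers were present, with a summed RPKM over 8 genes of 477 to 496 in wildtype and 594 to 612 in DISC1-Δ3 libraries. The summed RPKM of 8 microglial markers was 8580 to 8860 in wildtype and 6290 to 6500 in DISC1-Δ3 libraries. C1qa, a microglial complement gene, was at 3204.16 to 3454.06 RPKM in wildtype, where the OPC receptor gene Pdgfra was at 17.16 to 18.06. Microglial markers were thus abundant in these libraries, and in such bulk samples fewer cells of a type and less RNA per cell cannot be told apart. DISC1-Δ3 replicate 3 stood somewhat apart from its group. The chi-square of its counts, divided by the degrees of freedom, was 5.38 and 4.98 against replicates 1 and 2, and 2.59 between those libraries. Without it the log2 fold changes of Lef1, Tcf7, Tle1 and Tle3 were 2.52, 1.20, 1.16 and -0.19, and these genes kept their calls.

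Promoter sequences are shown for 1 gene that rose and 1 that did not in each of the TCF/LEF and Groucho families, to place the expression values beside the DNA in front of these genes. They are from RefSeq (GRCm38.p6), are written 5′ to 3′ on the strand of the gene, and stop before the outermost start of the gene in RefSeq and GENCODE. Capitals mark the core CTTTG, or its reverse complement CAAAG, that TCF/LEF factors recognise. Lef1 is shown from chr3:131110047-131110296 (plus strand), Tcf7l2 from chr19:55741560-55741796 (plus strand), Tle1 from chr4:72200990-72201143 (minus strand) and Tle3 from chr9:61372116-61372325 (plus strand).
Lef1: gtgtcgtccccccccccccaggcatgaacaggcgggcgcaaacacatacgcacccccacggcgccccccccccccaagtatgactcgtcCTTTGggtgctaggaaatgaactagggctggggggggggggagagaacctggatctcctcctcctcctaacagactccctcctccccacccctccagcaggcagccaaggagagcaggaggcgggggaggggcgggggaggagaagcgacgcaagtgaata
Tcf7l2: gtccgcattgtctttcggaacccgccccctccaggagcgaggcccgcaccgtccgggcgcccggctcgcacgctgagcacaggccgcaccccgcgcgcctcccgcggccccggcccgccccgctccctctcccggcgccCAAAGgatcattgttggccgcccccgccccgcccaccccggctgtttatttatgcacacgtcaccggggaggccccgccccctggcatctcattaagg
Tle1: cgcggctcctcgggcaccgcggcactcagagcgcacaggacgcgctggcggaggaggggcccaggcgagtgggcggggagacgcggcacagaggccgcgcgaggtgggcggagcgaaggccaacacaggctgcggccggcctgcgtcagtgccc
Tle3: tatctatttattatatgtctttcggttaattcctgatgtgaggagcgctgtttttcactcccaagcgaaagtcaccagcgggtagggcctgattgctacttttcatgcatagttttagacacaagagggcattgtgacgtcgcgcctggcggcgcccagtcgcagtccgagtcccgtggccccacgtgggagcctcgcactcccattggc
The Lef1 and Tcf7l2 stretches held 1 core each, and those of Tle1 and Tle3 held 0.

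The reference table held 15 windows for 9 of the genes, each with 250 bases before and 50 after a transcript start; Bcl9l was not among them. The fuller TCF/LEF sequences CTTTGAT and CTTTGAA, searched on both strands, were in 0 of these 15 windows, against 5.81% of the 14091 windows of tested genes. The core alone, which the fuller sequences contain, was in 7 of the 15 windows (46.7%) and in 46.9% of those of tested genes. All 4 Lef1 windows held it, as did the 1 window of Tcf7l1 and both of Tcf7l2, which did not pass the test of expression. The windows of Tcf7, the Tle genes and Bcl9 did not. Lef1 windows 1 and 2, which begin at 131110047 and 131110073, overlap, so the counts are of windows and not of independent stretches. The members' windows had a median GC content of 67.3%, against 60.7% for tested genes. These are matches of letters only, in windows of 300 bases.

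In DISC1-Δ3 libraries, Lef1 and Tcf7 rose among the TCF/LEF factors, and Tle1 rose among the Groucho genes, by 2.19-fold to 5.74-fold. Tcf7l1 and Tcf7l2 did not pass the test and stayed close to their wildtype levels. Tle3, the most abundant of the 4 Groucho genes examined, fell to 0.853 of its wildtype level. Bcl9l was slightly lower at the threshold, and Bcl9, Tle2 and Tle4 did not pass it. All 10 genes passed the filter on low values (0.5 RPKM or more in 3 or more libraries), as did 13792 genes of the table. The test was the quasi-likelihood test of edgeR over all of these genes, with Benjamini-Hochberg adjustment and a threshold of 0.05. Of the 10 genes, 3 were higher and 2 lower. Among all tested genes 39.9% were called, 20.4% higher and 19.5% lower, so the count of called members was close to the background. With a log2 fold change of 0.5 or more in either direction added to the call, 3 of the 10 genes remained, against 13.6% of tested genes. By size, 3 of the 10 were called and rose by a log2 fold change of at least 1, as were 2.76% of tested genes. The 10 genes were chosen with earlier results of these data known, so this contrast is only a description. The median log2 fold change of the 10 genes was -0.01, and that of all tested genes was 0.0075.

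**Figure D1:**
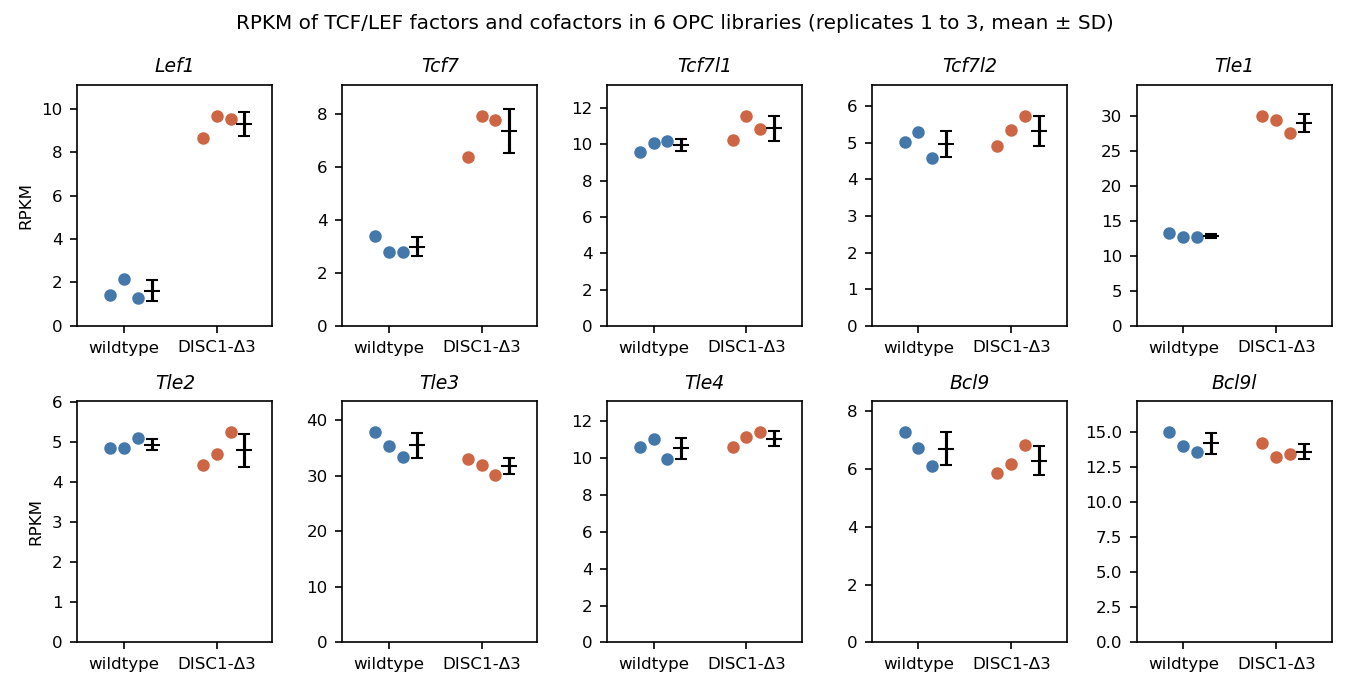
RPKM (vertical axes, from 0) of the 10 genes in 3 wildtype (blue) and 3 DISC1-Δ3 (red) libraries, replicates 1 to 3 from left to right, with the mean ± SD beside them. The groups are far apart for Lef1, Tcf7 and Tle1, and lie close together or overlap for the other 7 genes.

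Lef1 (gene ID 16842; chromosome 3, 131110471 to 131224356, plus strand, mm10) encodes a TCF/LEF factor that depends on β-catenin to activate genes. It had 1.43, 2.17 and 1.27 RPKM in wildtype replicates 1 to 3, against 8.65, 9.66 and 9.54 RPKM in the DISC1-Δ3 replicates. The lowest DISC1-Δ3 library was thus well above the highest wildtype library. The log2 fold change was 2.52 (standard error 0.13, 95% interval 2.25 to 2.79, Benjamini-Hochberg adjusted p = 4.90e-11 by edgeR). Lef1 ranked 110 among the rises of the 13792 tested genes.

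The reads behind Lef1 were 60, 104 and 64 in wildtype libraries and 424, 479 and 483 in DISC1-Δ3 libraries. Scaled to library size (CPM) these were 4.37, 6.33 and 3.91 against 29.8, 29.7 and 30.0, so the DISC1-Δ3 libraries differed less in CPM than in RPKM. The RPKM also depends on the transcript length that was assigned in each library. With the table's total as library size, the reads and RPKM imply a length of 2919 to 3445 bases for Lef1, the longest in DISC1-Δ3 replicate 1. The highest implied length was 1.18 times the lowest for Lef1, and at most 1.06 times for the other 9 genes. Wildtype replicate 2 was the highest of its group, with a 95% Poisson interval of 5.18 to 7.68 CPM against 3.01 to 4.99 in replicate 3, which covers counting error only. Without wildtype replicate 2 the log2 fold change of Lef1 was 2.77. GENCODE places an antisense gene, Gm43352, across 1208 bases of Lef1 exons, and the library protocol mentions no step that marks strand, so reads of the 2 genes cannot be told apart.

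Tcf7 (gene ID 21414; chromosome 11, 52252371 to 52283014, minus strand), which encodes TCF-1, the factor best known from T cell development, was at 3.41, 2.79 and 2.80 RPKM in wildtype libraries. In DISC1-Δ3 libraries it was at 6.40, 7.94 and 7.78. The groups did not overlap, and replicate 1 was the lowest DISC1-Δ3 library by RPKM, as it was for Lef1. By CPM the DISC1-Δ3 values of Lef1 were 29.8, 29.7 and 30.0, while those of Tcf7 were 16.3, 20.2 and 19.7. The log2 fold change of Tcf7 was 1.23 (standard error 0.12, 95% interval 0.97 to 1.48, adjusted p = 2.44e-07 by edgeR). The reads were 119, 115 and 117 against 232, 326 and 317. Per gene, the values do not separate full-length from shorter Lef1 or Tcf7 proteins.

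Tcf7l1 (gene ID 21415; chromosome 6, 72626378 to 72789254, minus strand), which encodes the factor that acts mainly as a repressor in the family, was at 9.60, 10.09 and 10.18 RPKM in wildtype libraries, against 10.23, 11.56 and 10.83 RPKM in those of DISC1-Δ3. The groups did not overlap, but the gap was only 10.18 to 10.23. The groups of 5 of the 10 genes did not overlap in RPKM (Lef1, Tcf7, Tcf7l1 and Tle1 higher, Tle3 lower in DISC1-Δ3), where 52.0% of tested genes did not overlap and 35.9% were higher without overlap. The log2 fold change was 0.04 (95% interval -0.12 to 0.21, adjusted p = 0.687 by edgeR). Tcf7l2 (gene ID 21416; chromosome 19, 55741820 to 55933654, plus strand) was at 5.01, 5.30 and 4.59 RPKM in wildtype libraries, against 4.91, 5.34 and 5.73 RPKM in those of DISC1-Δ3. Its groups overlapped, and the log2 fold change was 0.01 (95% interval -0.18 to 0.20, adjusted p = 0.940 by edgeR). It turned to -0.04 without DISC1-Δ3 replicate 3. The intervals of Tcf7l1 and Tcf7l2 lie below those of Lef1 and Tcf7.

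**Figure D2:**
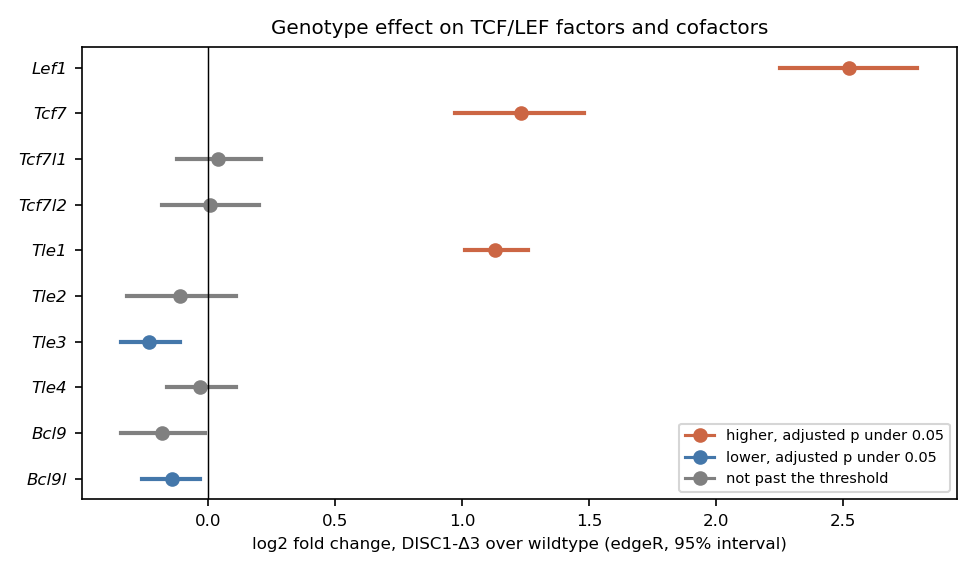
Log2 fold change (horizontal axis, DISC1-Δ3 over wildtype, edgeR) with its 95% interval for the 10 genes. Lef1 (2.52), Tcf7 (1.23) and Tle1 (1.13) lie to the right of 0, and the other 7 genes lie between -0.23 and 0.04.

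The make-up of the TCF/LEF family therefore differed between the genotypes. These shares are descriptions and follow from the changes above. Lef1 held 7.35%, 10.7% and 6.74% of the summed TCF/LEF RPKM in wildtype libraries, against 28.7%, 28.0% and 28.2% in those of DISC1-Δ3. Tcf7 held 15.4% ± 1.96 and 22.4% ± 1.03 (SD, n = 3 each). Tcf7l1 held 51.0% ± 2.64 and 33.1% ± 1.02, the largest part by RPKM in both genotypes. By reads, which do not correct for length, Lef1 and Tcf7l1 were at 30.5% ± 1.6 and 30.1% ± 0.878 in DISC1-Δ3 libraries, and Lef1 was the larger in replicates 1 and 3. By RPKM, Tcf7l2 went from 25.4% ± 0.90 to 16.2% ± 0.718 (SD, n = 3 each) without a called change of its own. The summed RPKM of the 4 factors was 19.4, 20.4 and 18.8 in wildtype libraries and 30.2, 34.5 and 33.9 in DISC1-Δ3 libraries. The level of Lef1 and Tcf7 over that of Tcf7l1 and Tcf7l2 was 0.276 to 0.331 in wildtype and 0.994 to 1.05 in DISC1-Δ3 libraries.

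Among the Groucho genes, Tle1 (gene ID 21885; chromosome 4, 72117142 to 72200919, minus strand) was at 13.23, 12.63 and 12.64 RPKM in wildtype libraries, against 29.95, 29.37 and 27.47 RPKM in those of DISC1-Δ3. The groups were far apart relative to their spread, from 531, 634 and 613 reads against 1313, 1434 and 1377. The log2 fold change was 1.13 (standard error 0.060, 95% interval 1.01 to 1.26, adjusted p = 7.43e-11 by edgeR). An antisense gene, Gm11250, shares 247 exon bases with Tle1. On opposite strands, Bcl9l shares 662 exon bases with Gm47205 and 110 with Cxcr5, Tcf7l1 shares 179 with Gm15401, and Tle2 shares 98 with Gm15917.

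Tle3 (gene ID 21887; chromosome 9, 61372366 to 61418497, plus strand) was at 37.75, 35.38 and 33.30 RPKM in wildtype libraries, against 33.06, 31.95 and 30.15 RPKM in those of DISC1-Δ3. All DISC1-Δ3 values were below the wildtype values, by as little as 33.06 to 33.30. The log2 fold change was -0.23 (standard error 0.054, 95% interval -0.34 to -0.11, adjusted p = 0.00257 by edgeR), and 43.0% of tested genes had a larger change in either direction. Tle2 (gene ID 21886; chromosome 10) ranged from 4.85 to 5.10 RPKM in wildtype libraries, against 4.44 to 5.24 RPKM in those of DISC1-Δ3, with a log2 fold change of -0.11 (95% interval -0.32 to 0.11). Tle4 (gene ID 21888; chromosome 19) ranged from 9.95 to 11.04 and from 10.62 to 11.40 RPKM, with a log2 fold change of -0.03 (95% interval -0.16 to 0.11). The direction of Tle4 turned under other scalings, to 0.05 with library totals. The groups overlapped for both genes.

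Tle1 held 19.8% to 20.7% of the summed Groucho RPKM in wildtype and 37.0% to 38.4% in DISC1-Δ3 libraries, and Tle3 went from 55.6% ± 1.12 to 41.4% ± 0.874 (SD, n = 3 each). The ratio of Tle1 to Tle3 was 0.350, 0.357 and 0.380 in wildtype libraries and 0.906, 0.919 and 0.911 in DISC1-Δ3 libraries. The summed Groucho RPKM was 61.0 to 66.5 in wildtype and 74.3 to 78.1 in DISC1-Δ3 libraries. That sum covers Tle1 to Tle4 and leaves out the Groucho relatives Aes and Tle6. Because the TCF/LEF sum grew by more, the ratio of the Groucho sum to the TCF/LEF sum was 3.14 to 3.42 in wildtype and 2.19 to 2.59 in DISC1-Δ3 libraries.

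**Figure D3:**
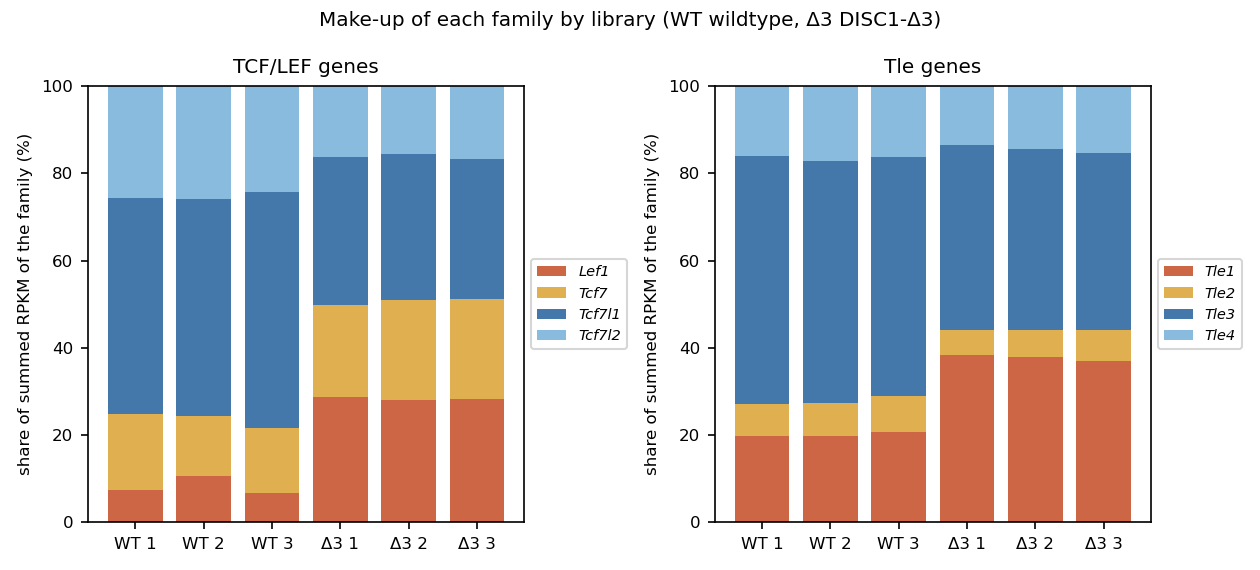
Share of the summed RPKM of the TCF/LEF family (left) and the Groucho (Tle) family (right) held by each gene, in percent, in each of the 3 wildtype and 3 DISC1-Δ3 libraries. Lef1 takes 6.74% to 10.7% in wildtype and 28.0% to 28.7% in DISC1-Δ3 libraries, and Tle1 takes 19.8% to 20.7% and 37.0% to 38.4%.

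The 2 BCL9 proteins bridge β-catenin to Pygopus. Bcl9 (gene ID 77578; chromosome 3) was at 7.25, 6.73 and 6.10 RPKM in wildtype libraries, against 5.84, 6.17 and 6.83 RPKM in those of DISC1-Δ3, and its log2 fold change was -0.18 (95% interval -0.34 to -0.01, adjusted p = 0.0867 by edgeR). Bcl9l (gene ID 80288; chromosome 9) had values of 14.99, 14.05 and 13.58 against 14.21, 13.24 and 13.44, and a log2 fold change of -0.14 (95% interval -0.26 to -0.03, adjusted p = 0.0469 by edgeR). The groups overlapped for both genes, and the interval of each was close to 0. Bcl9 passed the threshold without DISC1-Δ3 replicate 3 (log2 fold change -0.24, adjusted p = 0.0118 from edgeR) and without wildtype replicate 3 (-0.24, adjusted p = 0.0400 from edgeR). Bcl9l lost it when wildtype replicate 1 or 2 or DISC1-Δ3 replicate 2 or 3 was left out (adjusted p = 0.182, 0.103, 0.0970 and 0.0584 from edgeR), and with library totals (-0.06, adjusted p = 0.393). The 2 genes kept similar proportions, with Bcl9l at 68.0% ± 0.871 of their summed RPKM in wildtype and 68.5% ± 2.29 in DISC1-Δ3 libraries (SD, n = 3 each).

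In wildtype libraries the order of RPKM from the highest was Tle3, Bcl9l, Tle1, Tle4, Tcf7l1, Bcl9, Tcf7l2, Tle2, Tcf7 and Lef1. The means ran from 35.5 down to 1.62. This is the order in bulk libraries that also held abundant microglial transcripts. Of the neighbours in this order, Tle4 and Tcf7l1 overlapped in their ranges, as did Tcf7l2 and Tle2. In DISC1-Δ3 libraries the order was Tle3, Tle1, Bcl9l, Tle4, Tcf7l1, Lef1, Tcf7, Bcl9, Tcf7l2 and Tle2, with means from 31.7 down to 4.79. Here Tle4 overlapped with Tcf7l1, Tcf7 with Bcl9, and Tcf7l2 with Tle2. Lef1, the lowest of the 10 genes in wildtype, was thus the sixth in DISC1-Δ3 libraries.

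The genes most like the TCF/LEF factors across the 6 libraries were sought by Pearson's r of log2(RPKM + 1), as a description over libraries that fall into the 2 genotypes. For Lef1 they were Fbxo21, Kcmf1 and Dph6 (r = 0.9995, 0.9991 and 0.9991), and 147 of 13791 other tested genes reached 0.99. For Tcf7 they were Hs3st3b1, Tmod3 and Kctd3 (r = 0.9987, 0.9984 and 0.998), with 75 genes at 0.99 or above. Tcf7l1 was most like Dlx5, Cnmd and Htr3a (r = 0.9965, 0.9949 and 0.9946), and 4 genes reached 0.99. For Tcf7l2 the closest were Grsf1, Kcns1 and Ttc33 (r = 0.9855, 0.9833 and 0.9831), and 0 genes reached 0.99. The log2 fold changes of the 3 genes closest to Lef1 were 0.41, 0.17 and 0.30, smaller than its own, since r does not depend on the size of a change.

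The other nuclear parts of the pathway were taken as lists. Their counts stand beside 20.4% of all tested genes called higher and 19.5% called lower. Of 17 co-activators that work with β-catenin in the nucleus, 4 were higher, 3 lower and 10 not past the threshold, close to that background. The median log2 fold change was 0.01, with a range of -0.51 to 0.30. Ctnnb1, which encodes β-catenin, had RPKM levels of 144.05, 147.44 and 146.26 in wildtype libraries, against 184.67, 190.79 and 196.18 in those of DISC1-Δ3 (log2 fold change 0.30, adjusted p = 8.77e-06 from edgeR). Smarca4, the ATPase of the BAF chromatin remodeller, rose by 0.22 and the co-activator acetyltransferase gene Ep300 fell by 0.29 on the log2 scale. Tbl1xr1, which encodes a TBL1-related exchange factor, fell by 0.51. Pygo1 and Pygo2, which encode the Pygopus proteins, were at 0.09 and -0.07 (adjusted p = 0.659 and 0.391 from edgeR). Without DISC1-Δ3 replicate 3 the list had 2 higher and 7 lower, and it had 2 higher without wildtype replicate 1 or 2.

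Of 16 inhibitors of TCF or β-catenin in the table, 6 were higher and 1 lower, with a median log2 fold change of 0.16. The histone deacetylase genes Hdac1, Hdac2 and Hdac3, which Groucho and other co-repressors recruit, were higher by 0.18, 0.28 and 0.17 on the log2 scale. Cby1, whose product binds β-catenin, was higher by 0.30, and Zbtb33, which encodes Kaiso, fell by 0.38. Aes, the short Groucho relative without the repressor domain, had the highest level in the list, 309.77 to 354.41 RPKM over the 6 libraries, and a log2 fold change of 0.00 (adjusted p = 0.972 from edgeR). The count depended on scaling, with 11 higher under library totals, where the median of all tested genes was 0.0902. The list had 3 higher without wildtype replicate 1, 2 higher without DISC1-Δ3 replicate 1 or 2, and 2 lower without DISC1-Δ3 replicate 3.

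DNA-binding factors that recruit Groucho were listed separately. Of 17 genes 13 were tested, with 7 higher, 3 lower and a median log2 fold change of 0.26. Nkx6-1 and Runx2, at most 0.13 and 0.28 RPKM in wildtype libraries, passed the filter on low values only through the DISC1-Δ3 libraries. With a filter of 1 RPKM, 6 genes were higher, and Runx2 still passed the filter only through the DISC1-Δ3 libraries. Nkx2-2, a homeodomain factor of the oligodendrocyte lineage, was at 7.17, 8.83 and 7.25 RPKM in wildtype libraries and at 13.84, 13.29 and 12.56 in DISC1-Δ3 libraries, a log2 fold change of 0.69 (adjusted p = 1.51e-05 from edgeR). Hes1, a Notch target, fell by 0.46 on the log2 scale. Runx2, best known as the master regulator of bone-forming cells, rose from 0.26, 0.26 and 0.28 to 1.0, 1.04 and 1.26 RPKM. Runx1 and Hhex, which microglia also express, fell by 0.46 and 0.54, beside a median log2 fold change of -0.41 for 8 microglial markers. Whether that shift has a part in their fall was not tested.

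Genes that TCF/LEF factors are known to switch on as feedback had the largest median of the 5 lists, 2.33, with 10 of 11 tested genes higher. Several of them had been picked by the study from these libraries and are not independent evidence. Dkk1, at most 0.06 RPKM in wildtype libraries, passed the filter on low values only through the DISC1-Δ3 libraries. So did Rnf43, at 0.47, 0.54 and 0.34 RPKM in wildtype libraries. With a filter of 1 RPKM, 9 feedback genes were higher, and Rnf43 passed that filter too only through the DISC1-Δ3 libraries. Nkd1, which encodes an inhibitor of Dishevelled, went from 9.72 to 10.03 RPKM in wildtype to 105.61 to 107.66 in DISC1-Δ3 libraries, a log2 fold change of 3.35 (adjusted p = 2.93e-19 from edgeR). Sp5, a repressor induced by Wnt, went from 1.12, 1.49 and 1.13 to 17.06, 17.12 and 14.20 RPKM, and Apcdd1 from 44.11 to 45.57 to 170.57 to 180.43 RPKM. The log2 fold changes of this list ran from 0.03 (Ccnd1) to 5.02 (Notum). Lef1 at 2.52 and Tcf7 at 1.23 lie in that range, but so does the uncalled Tcf7l1 at 0.04. The range therefore does not set Lef1 and Tcf7 apart from genes without a called change.

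**Figure D4:**
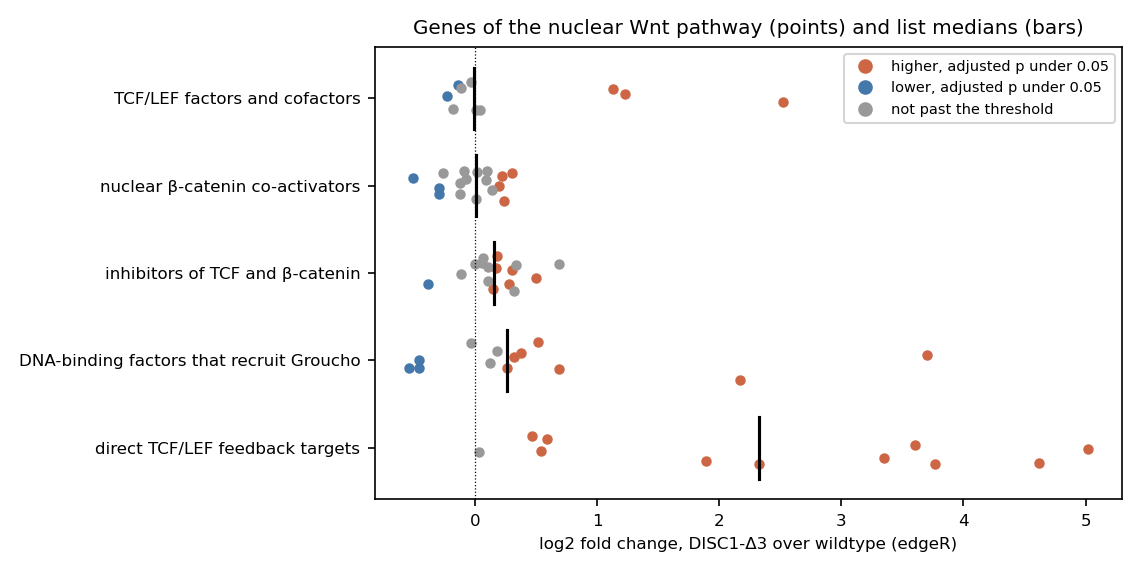
Log2 fold change (horizontal axis, DISC1-Δ3 over wildtype, edgeR) of each tested gene in 5 lists, with list medians as bars (-0.01, 0.01, 0.16, 0.26 and 2.33 from top to bottom). Most co-activators and inhibitors lie within 0.5 of 0, while the feedback targets reach 5.02; Nkx6-1 at 3.70 and Dkk1 at 4.62 had at most 3 reads in each wildtype library, so their places are not bounds.

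Lef1 and Tcf7 are also expressed by other cells, and markers of those cells were measured in the same libraries. The counts of markers called, here and below, stand beside 20.4% of all tested genes called higher and 19.5% called lower. Lef1 is a gene of brain endothelium, where Wnt signalling maintains the blood-brain barrier. The summed RPKM of 8 endothelial markers was 166 to 171 in wildtype and 196 to 198 in DISC1-Δ3 libraries, with 3 genes higher, 1 lower and a median log2 fold change of 0.12. The log2 fold changes in that list ran from -0.14 for Mfsd2a, which was lower, to 0.39 for Cldn5. The part of endothelial cells in the values of Lef1 was not tested.

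T cells express both Lef1 and Tcf7. The summed RPKM of 7 T cell markers was 3.65 to 5.52 in wildtype and 4.34 to 5.82 in DISC1-Δ3 libraries. Of these genes 4 were tested, and 0 passed the threshold by edgeR (adjusted p 0.0947 to 0.779, with 2 at an unadjusted p under 0.05) or DESeq2, while 1 was higher by limma or without wildtype replicate 2, and 1 lower without DISC1-Δ3 replicate 2. Cd3e, Cd3d and Cd8a, which were too low to be tested, were at 0.04 to 0.67 RPKM over the 6 libraries. Cd3g was at 0.33, 0.34 and 0.56 RPKM in wildtype libraries, against 1.03, 0.84 and 0.71 RPKM in those of DISC1-Δ3 (log2 fold change 0.95, adjusted p = 0.0947 by edgeR), and the groups of Cd4 did not overlap either (0.47, adjusted p = 0.0981 by edgeR). Cd3g passed the filter on low values only through the DISC1-Δ3 libraries, with 4, 5 and 8 reads in wildtype against 13, 12 and 10. Cd2 was at 0.95, 2.24 and 1.47 RPKM in wildtype libraries, above Lef1 in replicates 2 and 3, and at 0.91, 1.79 and 0.44 RPKM in those of DISC1-Δ3. Lck had a log2 fold change of 0.10. Neuronal markers were higher for 6 of 8 genes, with a summed RPKM of 273 to 279 in wildtype and 330 to 353 in DISC1-Δ3 libraries. Among them Slc17a6, at 0.25 to 0.43 RPKM in wildtype libraries, passed the filter on low values only through the DISC1-Δ3 libraries. With a filter of 1 RPKM, 5 neuronal markers were higher. Pericyte markers were higher for 5 of 5, with sums of 120 to 127 and 167 to 172. The part of T cells, neurons and pericytes in the values of the TCF/LEF factors was not tested.

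Tcf7l2 marks oligodendrocytes that begin to differentiate, and the other markers of this stage moved in both directions. Of 10 premyelinating markers 2 were higher (Gpr17 by 0.68 and Bmp4 by 1.0 on the log2 scale) and 4 lower, among them Enpp6, which fell by 0.88, and Myrf, which fell by 0.47. Their median log2 fold change was -0.01, next to 0.01 for Tcf7l2. Of 8 tested markers of mature oligodendrocytes 5 were lower, with a median log2 fold change of -0.39. OPC markers were higher for 6 and lower for 1 of 8 genes, with a median of 0.47. The lower gene was Ptprz1, with a log2 fold change of -0.35 (adjusted p = 9.16e-05 by edgeR). Astrocyte markers were higher for 1 and lower for 4 of 6. The summed RPKM of 5 genes of cycling cells overlapped between the groups, at 55.4 to 63.5 in wildtype and 62.3 to 64.6 in DISC1-Δ3 libraries. Of these genes Mki67 was lower (log2 fold change -0.34, adjusted p = 0.0357 by edgeR), and 4 did not pass the threshold.

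**Figure D5:**
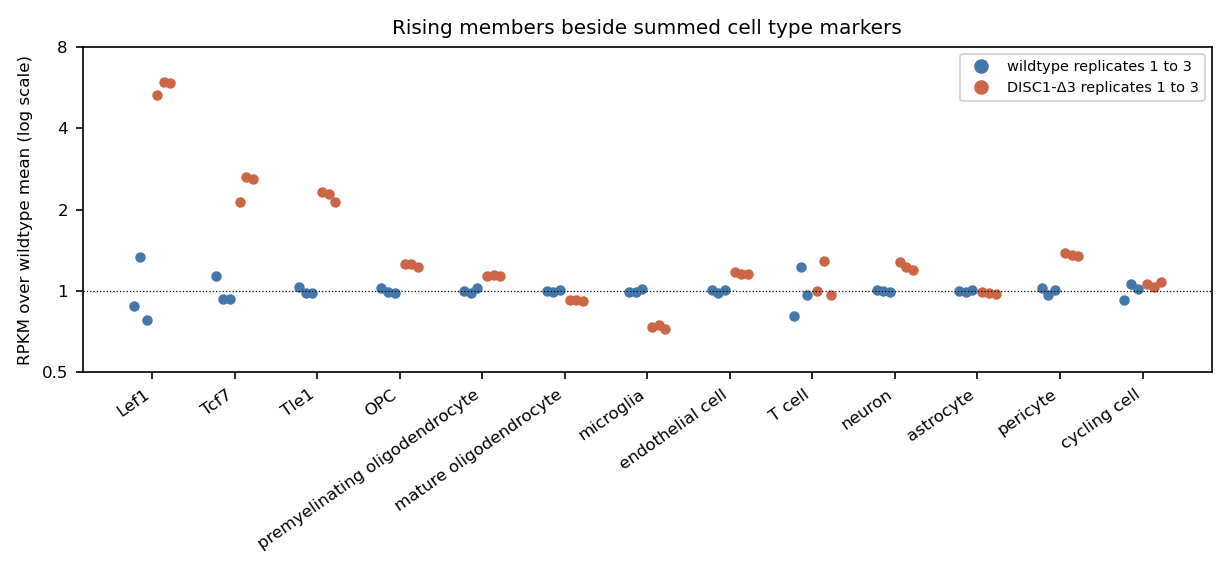
RPKM of Lef1, Tcf7 and Tle1 and summed RPKM of 10 lists of cell type markers in each library, relative to the wildtype mean (vertical axis, log scale). Each point is 1 library; the 3 genes rise well above 1 in DISC1-Δ3 libraries, while the marker sums stay much closer to 1, with microglia below it and OPC, neuron and pericyte markers above it.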

How the data were processed

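RNA from freshly isolated OPCs was sequenced as single-end reads of 50 bases on a BGISEQ-500. The authors deposited 1 table of 18211 genes with an expected count (reads assigned to each gene, fractions allowed) and an RPKM per library. The submitters' processing notes name Bowtie2 2.2.5 and mm10; the counting tool and annotation are not given in the sources used here. Of expected counts above 0, 90.2% were whole, including all of the members' counts. The table's 4 columns of group averages were left out.

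Expected counts were rounded and scaled by TMM (factors 0.970 to 0.973 in wildtype, 1.02 to 1.04 in DISC1-Δ3), and tested with edgeR 4.0.16 in R 4.3.3, with genotype as the only term. Genes under 0.5 RPKM in more than 3 libraries were left out. Standard errors are the log2 fold change over the root of the quasi-likelihood F. Alternatives used DESeq2 1.42.0, limma 3.58.1 on log2 RPKM, other scalings and filters, a replicate block and each library left out. The fit code was run on simulated counts with far fewer changed genes than were called here, so that run does not check the scaling. A single read was 0.0609 to 0.0729 CPM, and intervals from reads cover counting error only. Gene positions are from GENCODE M21 (GRCm38). Named genes were the members, Disc1, at most 6 genes of a list, chosen among those that passed the test or that an account of the list needs, and the 3 genes most like each TCF/LEF factor. Protein sequences were not analysed here. The members and lists were chosen with earlier results of these data known.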

Additional observations from a re-analysis of the deposited data

How the results depend on the processing

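Lef1, Tcf7 and Tle1 stayed higher, and Tle3 lower, past the threshold in all 15 alternatives that refit the test, with log2 fold changes of 1.98 to 2.77, 1.06 to 1.32, 1.09 to 1.22 and -0.28 to -0.14. The adjusted p of Tle3 ran from 0.000410 to 0.0481. Disc1 also kept its call, at -0.51 to -0.29. The number of members higher was 3 throughout. The number of members lower was 1 with library totals, RPKM sums, DESeq2 or limma with either pseudocount (1 or 0.1), 0 when a log2 fold change of 0.5 or more was also asked for, and 1 to 3 with a library left out. Bcl9l lost its call with library totals, RPKM sums, limma with a pseudocount of 1 or 0.1 (-0.06 in each) and DESeq2 (-0.15, adjusted p = 0.0735), and ran from -0.19 to -0.11 with a library left out. Bcl9 ran from -0.24 to -0.12 with a library left out. Tle4, uncalled throughout, was at 0.05 with library totals, 0.06 with RPKM sums, and 0.06 and 0.07 with limma at a pseudocount of 1 and 0.1. Tcf7l1 ran from -0.03 to 0.06 and Tcf7l2 from -0.04 to 0.05 with a library left out. Library totals, RPKM sums and limma moved the median of all genes from 0.0075 to between 0.0745 and 0.0942. Genes called lower fell from 2691 to 1748 with RPKM sums, 1774 and 1763 with limma at a pseudocount of 1 and 0.1, and 848 with that minimum of 0.5, where 1032 were higher. The share of calls that were higher was 51.1%, and 69.2% to 70.1% under these scalings. Inhibitors had 11 higher and 0 lower with library totals, RPKM sums and both limma fits, and 2 to 6 higher and 0 to 2 lower with a library left out. Co-activators had 2 to 4 higher and 3 to 7 lower with a library left out.

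Shares of reads in place of RPKM do not correct for length. In wildtype they were 13.1% for Tcf7, 46.5% for Tcf7l1, 32.0% for Tcf7l2, 14.1% for Tle1, 4.91% for Tle2, 63.9% for Tle3, 30.2% for Bcl9 and 69.8% for Bcl9l. In DISC1-Δ3 libraries they were 30.5% for Lef1, 19.1% for Tcf7, 30.1% for Tcf7l1, 20.2% for Tcf7l2, 29.0% for Tle1, 4.27% for Tle2, 51.0% for Tle3 and 15.7% for Tle4, so that Lef1 and Tcf7l1 changed places there. The promoter search for the core, chosen after seeing the data, matched 7 windows. Deviations of same-numbered libraries from their group means correlated at 0.117, 0.0305 and -0.0340, and those of other pairs at -0.1 to 0.0624. The labels do not say whether the replicate numbers pair the libraries, and with 3 libraries per group these low values cannot settle it. With the replicate number as a block, 2774 genes were higher and 2655 lower, Lef1 was at 2.53, and the members called were 3 higher and 2 lower. Lef1 had 60 to 104 reads in wildtype libraries, which limits the precision of its fold.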
